A study of Mus musculus with 6 samples.

Results

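The granins Vgf, Chga, Chgb, Scg2 and Scg3, the convertase helper and inhibitor genes Scg5 and Pcsk1n, and the processing enzyme genes Pcsk1, Pcsk2 and Cpe were examined in embryonic cortical cells with reduced Ybx1. These 10 genes were found by symbol among the 17920 genes listed, and all 10 were among the 13669 genes that passed the filter on low counts. Vgf was chosen because it fell in this very comparison, so its values are given as a description with no test. The other 9 members were chosen by function, with results of these data known, and the question was whether the fall of Vgf was shared by them.

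According to the methods, the cells came from the mouse cortex at E13.5 (the embryonic day), were cultured, infected with a lentivirus that expresses a short hairpin RNA (shRNA), and selected with puromycin, an antibiotic that kills uninfected cells. Ybx1, the target of the knockdown, encodes an RNA-binding protein that reads 5-methylcytosine in mRNA. There were 3 libraries of control cells (labelled WT, described in the methods as shRNA controls) and 3 libraries of Ybx1 knockdown cells (KD). The labels instead name brain tissue and cortex, and the design text of the series calls Ybx1 deleted, so the description as cultured knockdown cells rests on the methods. Neither the hairpin carried by each library nor the number of embryos behind a culture is given. By that description infection and puromycin are shared by both groups.

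Granins are acidic proteins stored in dense-core vesicles, the large secretory vesicles in which neurons and endocrine cells keep neuropeptides. They help to gather cargo at the trans-Golgi network, and several are themselves cut into active peptides. Prohormone convertases cut precursors after paired basic residues inside the maturing vesicle, and carboxypeptidase E then trims the basic residues left at the end. In the brain this pathway supplies peptides such as somatostatin, neuropeptide Y and the Vgf-derived peptides, and Vgf is known as a gene induced by neurotrophins and by neuronal activity.

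The members are spread over the genome, and positions here are those of the GRCm38 annotation of GENCODE. Among the granin genes, Vgf (Entrez Gene 381677) lies at chr5:137026392-137033351 on the plus strand, Chga (12652) at chr12:102554969-102565028 on the plus strand, Chgb (12653) at chr2:132781278-132795079 on the plus strand, Scg2 (20254) at chr1:79434669-79440120 on the minus strand and Scg3 (20255) at chr9:75643189-75684056 on the minus strand. Scg5 (20394) lies at chr2:113776362-113829121 on the minus strand and Pcsk1n (30052) at chrX:7919822-7924410 on the plus strand. Pcsk1 (18548) is at chr13:75089826-75134861 on the plus strand, Pcsk2 (18549) at chr2:143546156-143816285 on the plus strand and Cpe (12876) at chr8:64592542-64693054 on the minus strand. All are protein-coding genes. Exons of Pcsk1n overlap exons of Eras on the opposite strand, and those of Pcsk2 overlap the antisense genes Pcsk2os1 and Pcsk2os2. Whether the counting used strand is not stated, so reads of these genes and their antisense partners cannot be told apart. Eras itself was listed with at most 1 count in any library.

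Several granin promoters are known for a cAMP response element, the DNA site bound by CREB. The sites are shown because Vgf and other members are studied as activity-regulated genes. The 250 bases before the start were taken from RefSeq (GRCm38.p6) for the 8 members with an entry, that is all but Vgf and Cpe. The complete element TGACGTCA was found, on either strand, before 3 of these 8 genes, Chgb, Scg2 and Pcsk1. It was found before 1.55% of 32851 promoters of the same length, which were not matched for base composition. G and C made up 46.8% to 82.4% of the bases in the 8 member promoters, against a median of 52.4% for all promoters. Pcsk1 (46.8%), Scg2 (48.0%) and Scg5 (52.0%) lay below that median. Each site is given with 8 bases on either side, 5′ to 3′ on the strand of the gene, with the element in capitals.
Chgb: ctgctccgTGACGTCAgggctgag
Scg2: tgagccggTGACGTCAgcgtggaa
Pcsk1: ggtagatcTGACGTCAagagatgg
The element began 72 bases before the start of Chgb (chr2:132781562-132781585, plus strand), 68 bases before that of Scg2 (chr1:79440079-79440102, minus strand) and 78 bases before that of Pcsk1 (chr13:75089771-75089794, plus strand). The Chgb and Scg2 windows lie inside the GENCODE genes because RefSeq places those starts further downstream.

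The half-site TGACG, which is also counted inside the complete element, was present before 7 of the 8 genes, all but Pcsk1n, and before 17.8% of all promoters. An AP-1 site, TGANTCA, the sequence bound by Fos and Jun proteins, was present before Pcsk1n only, and before 6.75% of all promoters. The half-site of Chga and the AP-1 site of Pcsk1n are shown with the same flanks.
Chga: cggtcctaTGACGtaatttcc
Pcsk1n: cagcccacTGAGTCAatttccct
These began 44 bases before the start of Chga (chr12:102554889-102554909, plus strand) and 234 bases before that of Pcsk1n (chrX:7919580-7919602, plus strand). Such matches describe letters in a window and do not show binding.

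Library totals lay between 16294635 and 16497505 estimated counts. Normalised counts are per 1000000 counts of a library (CPM), with its total over the genes tested scaled by the TMM factor of edgeR. Adjusted P values come from the quasi-likelihood test of edgeR, corrected by Benjamini-Hochberg over all genes tested, and fold changes are of KD over WT. Library values are given in the order of replicates 1, 2 and 3. The methods describe 3 independent replicate experiments, but nothing states that the libraries of a group came from separate animals. P values therefore measure the spread between these libraries. Ybx1 was at 618.4, 614.9 and 652.9 CPM in WT, and at 98.3, 92.2 and 158.8 CPM in KD. All KD libraries lay below all WT libraries, with 18.5% of the WT mean left (log2 fold change -2.43, SE 0.18, adjusted P = 0.000182), and KD replicate 3 kept the most Ybx1. Over all genes tested, 1631 (11.9%) were called lower and 1646 (12.0%) higher in KD at an adjusted P under 0.05, and in 20.6% each KD library lay below all WT libraries. A fit on log2(TPM + 1) split the calls differently, with 2076 higher and 1072 lower.

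Vgf encodes a secreted granin-like precursor of several neuropeptides. Its level was 51.6, 65.1 and 29.5 CPM in WT, against 11.7, 14.4 and 16.5 CPM in KD. The groups did not overlap, and the control libraries differed from each other by more than the KD libraries did. The means were 48.7 ± 18.0 CPM in WT and 14.2 ± 2.39 CPM in KD (SD, n = 3 each), a log2 difference of -1.78 (SE 0.26), so KD held 29.2% of the WT level. The counts behind these values ran from 473 to 1055 in WT and from 195 to 272 in KD. Only 3 genes tested had a more negative log2 fold change. Of these, 1 had a mean of at least 5 CPM, and it was Ybx1, the target of the knockdown.

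The fall of Vgf was not of the same size in every pair of libraries with the same replicate number. The difference of KD from WT on the log2 scale was -2.14 in replicate 1 and -2.18 in replicate 2, but -0.84 in replicate 3. That pair combined the lowest Vgf among controls with the highest Vgf among KD libraries. Ybx1 itself differed by -2.65, -2.74 and -2.04 in replicates 1, 2 and 3, so the third pair had the smallest difference for both genes. Whether the remaining Ybx1 bears on Vgf was not tested.

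Among the other 9 members, 2 were called lower and 0 higher, against 11.9% and 12.0% of all genes tested. None was higher in edgeR at an unadjusted P under 0.05 (0 of 9), nor in DESeq2, limma-voom or limma on log2(TPM + 1) at the threshold. The members called were Pcsk1n and Chgb, and their changes were much smaller than that of Vgf. The median log2 fold change of the 9 was -0.10, against -0.0 for all genes tested. It was below 0 for 8 of the 9 members, against 50.3% of all genes, but Scg5 and Pcsk1 were so close to 0 that the number was 6 with scaling by library totals only, with limma-voom and with log2(TPM + 1). The KD libraries lay wholly below the WT libraries for Chgb, Scg3 and Pcsk1n, 3 of these 9 members, against 20.6% of all genes. No other member came near the fold change of Vgf: the next was Pcsk1n at -0.43.

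**Figure D1:**
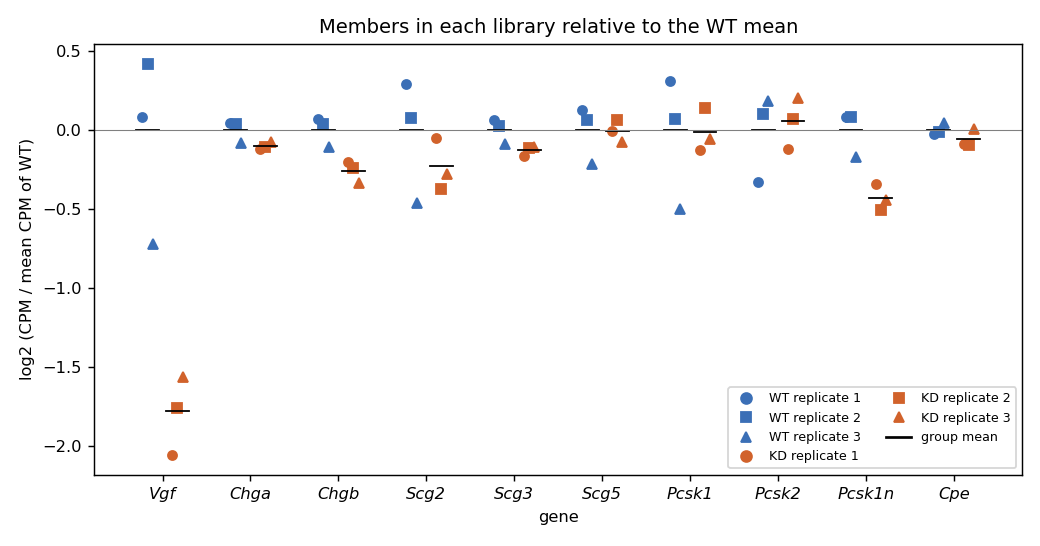
Level of each of the 10 genes in each library as log2 of its CPM over the mean CPM of the WT libraries. Blue symbols are WT and orange symbols KD libraries, the shape marks the replicate number and a black bar the group mean. The KD libraries of Vgf lie far below those of any other gene, and Chgb, Scg3 and Pcsk1n are the other genes whose groups are separate.

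Chromogranin A, encoded by Chga, is the classical granin of endocrine vesicles. Chga was at 119.5, 119.2 and 109.4 CPM in WT, and at 106.5, 107.4 and 109.8 CPM in KD. WT replicate 3 lay within the range of the KD libraries, so the groups overlapped. KD held 93.0% of the WT mean, for a log2 difference of -0.10 (SE 0.05, adjusted P = 0.175).

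Chgb, which encodes chromogranin B (secretogranin 1), was at 159.1, 155.3 and 140.5 CPM in WT and at 131.8, 128.4 and 120.1 CPM in KD. No KD library reached the lowest control. Its log2 fold change of -0.26 (SE 0.06, adjusted P = 0.0174) was past the threshold, with KD at 83.6% of the WT mean. The 3 pairs differed by -0.27, -0.27 and -0.23, a far more even set than that of Vgf. The call did not hold when any of 4 single libraries was left out: the adjusted P was 0.0538 without WT replicate 1, 0.0705 without WT replicate 2, 0.0589 without KD replicate 2 and 0.057 without KD replicate 3. It held when all libraries were paired by replicate number (log2 fold change -0.26, adjusted P = 0.000749).

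Scg2 encodes secretogranin II, the precursor of secretoneurin. It was at 152.4, 131.7 and 90.4 CPM in WT, and at 120.5, 96.3 and 102.6 CPM in KD. WT replicate 3 was the lowest of all 6 libraries, below every KD library. This gave a log2 difference of -0.23 (SE 0.17, adjusted P = 0.345), with an interval of 2 SE from -0.56 to 0.10. As for Vgf, replicates 1 and 2 showed the larger falls, with differences of -0.34 and -0.45, while the third pair differed by 0.18 in the opposite direction. Without WT replicate 3 the log2 fold change was -0.42 (adjusted P = 0.0232), so this single control decided the call in the unpaired fit. Pairing all libraries by replicate number gave -0.21 (adjusted P = 0.0724) for Scg2, which was also not past the threshold.

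Secretogranin III, the product of Scg3, binds vesicle membrane cholesterol and chromogranin A. Scg3 was at 305.5, 297.2 and 274.6 CPM in WT, and at 261.3, 270.0 and 270.9 CPM in KD. The groups did not overlap, though KD replicate 3 came within a few CPM of WT replicate 3. Its log2 fold change of -0.13 (SE 0.05, adjusted P = 0.0987) did not pass the threshold. It was -0.17 (adjusted P = 0.0307) without WT replicate 3, again the lowest control.

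Pcsk1n encodes proSAAS, a granin-like protein and an inhibitor of the convertase PC1/3. Its level was 292.6, 292.3 and 245.6 CPM in WT, against 217.8, 195.1 and 203.9 CPM in KD. All KD libraries lay below all controls. The log2 fold change of -0.43 (SE 0.08, adjusted P = 0.00507) was the largest of the 9 members, and KD held 74.3% of the WT mean. The pairs differed by -0.43, -0.58 and -0.27. Pcsk1n was past the threshold in all 15 alternative fits, with adjusted P values between 4.08e-06 and 0.0292.

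Scg5 encodes 7B2, the chaperone that the convertase PC2 needs to become active. Its level was 162.6, 155.8 and 128.4 CPM in WT, against 148.4, 155.3 and 141.4 CPM in KD. The KD libraries lay inside the range of the controls. For Scg5 the log2 fold change was -0.01 (SE 0.08, adjusted P = 0.966), with an interval of 2 SE from -0.17 to 0.16. The inhibitor of PC1/3 was thus called lower, while no difference in the chaperone of PC2 was detectable.

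Pcsk1 encodes PC1/3 itself and was the least counted member, with 101 to 182 counts per library. It was at 11.0, 9.32 and 6.29 CPM in WT, and at 8.12, 9.76 and 8.55 CPM in KD. The pairs differed in opposite directions, by -0.44 in replicate 1 and by 0.44 in replicate 3. The log2 fold change was -0.01 (SE 0.19, adjusted P = 0.966), and its interval of 2 SE ran from -0.40 to 0.37, so that a change as large as that of Chgb could not have been told from no change.

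Pcsk2, the gene of PC2, was at 40.2, 54.3 and 57.4 CPM in WT, and at 46.5, 53.1 and 58.2 CPM in KD. Replicate 1 was the lowest library in both groups. Pcsk2 had a fitted log2 difference of 0.06 (SE 0.13, adjusted P = 0.792), with an interval of 2 SE from -0.21 to 0.32. Carboxypeptidase E, encoded by Cpe, removes basic residues from cut precursors. Cpe was at 691.5, 697.2 and 724.8 CPM in WT, and at 662.5, 659.4 and 705.8 CPM in KD. Only KD replicate 3 reached into the range of the controls. For Cpe the log2 difference was -0.06 (SE 0.05, adjusted P = 0.37), with an interval of 2 SE from -0.15 to 0.03, the narrowest among the enzyme genes.

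**Figure D2:**
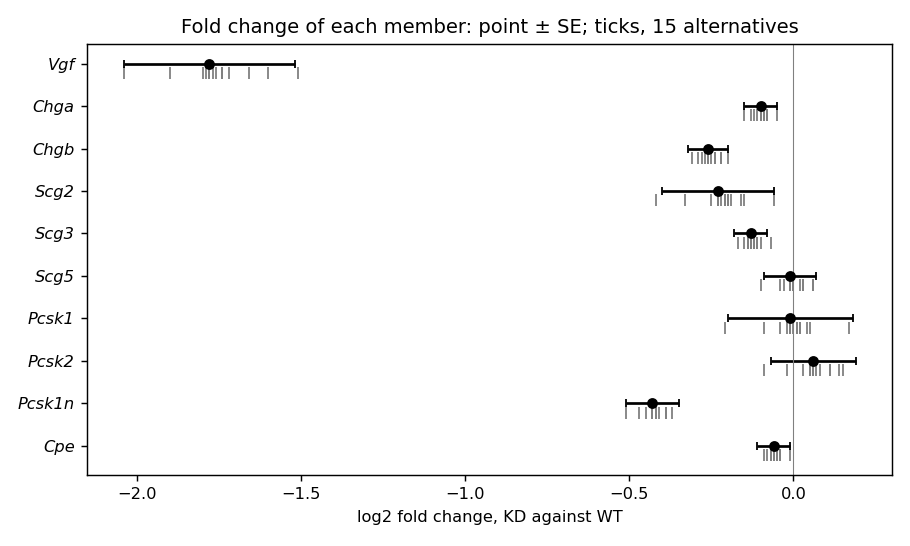
Log2 fold change of KD against WT for each of the 10 genes. The point is the fitted value, the bar 1 SE on each side and the short grey ticks the values under the alternative fits. Vgf stands alone near -1.78, Pcsk1n and Chgb lie to the left of 0 in every fit, and the ticks of Scg5, Pcsk1 and Pcsk2 fall on both sides of 0.

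WT replicate 3 was the lowest control library for 8 of the 10 members, all except Pcsk2 and Cpe, against 36.3% of all genes tested. The 2 exceptions had their lowest control in WT replicate 1. Leaving out WT replicate 3 gave 4 members called lower among those other than Vgf, namely Chgb, Pcsk1n, Scg2 and Scg3. The number called was 1, Pcsk1n, without WT replicate 1, without WT replicate 2, without KD replicate 2 or without KD replicate 3. The log2 fold change of Vgf ranged from -2.04 to -1.51 over the fits without 1 library.

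Levels were compared between members in TPM, which divides by transcript length. In WT, Cpe was the highest at a mean of 745.2 TPM, followed by Scg5 at 316.9, Scg3 at 303.9 and Pcsk1n at 289.3 TPM. Chgb at 144.6, Chga at 142.5 and Scg2 at 103.4 TPM formed the middle of the order. The lowest were Vgf at 39.9, Pcsk2 at 22.6 and Pcsk1 at 3.74 TPM. The ranges of the controls overlapped for the neighbours Scg5 and Scg3, Scg3 and Pcsk1n, Chgb and Chga, and Vgf and Pcsk2, so these could not be ordered beyond their spread. In KD, Vgf at 12.0 ± 2.18 TPM stood below Pcsk2 at 24.3 ± 2.43 TPM, and Chga at 137.6 ± 0.920 TPM above Chgb at 125.5 ± 7.77 TPM (SD, n = 3 each).

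Vgf was a small part of the expression of these genes in every library. Its share of the summed TPM of the 10 members was 1.91%, 2.48% and 1.23% in WT against 0.484%, 0.625% and 0.711% in KD. The summed TPM of the 10 was 2188, 2143 and 2005 in WT and 1992, 1979 and 1958 in KD. The KD sums lay just below that of WT replicate 3.

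**Figure D3:**
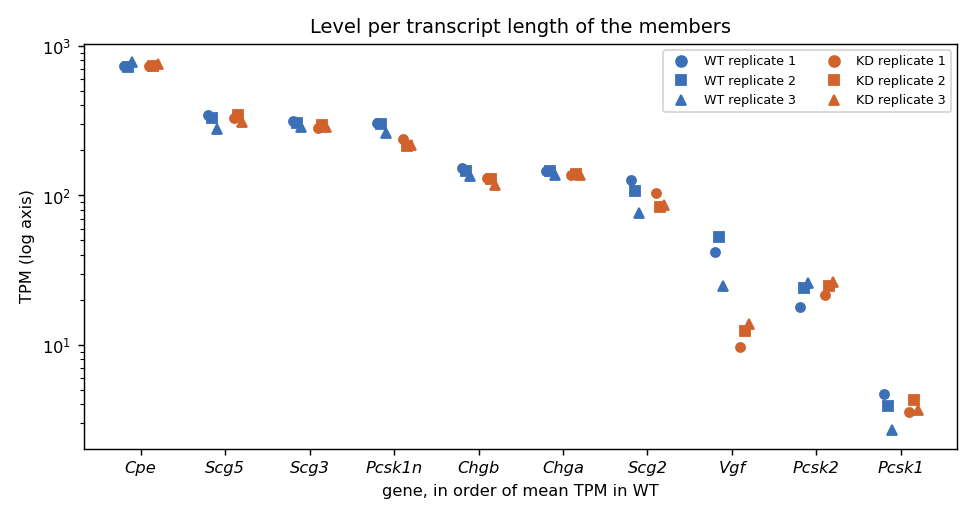
Level per transcript length (TPM, log axis) of the 10 genes in each library, in the order of their WT means. Blue symbols are WT and orange symbols KD libraries. The genes span from below 10 TPM for Pcsk1 to above 700 TPM for Cpe, and Vgf is the gene whose KD symbols fall clearly out of the order.

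The 5 genes whose log2 CPM over the 6 libraries was most like that of Vgf, by Pearson's r among 11438 genes with a mean of at least 5 CPM, were Cs (r = 0.998), Strap (0.997), Arhgdia (0.995), Plpbp (0.995) and Serp2 (0.994). These 6 points are 2 groups of 3 libraries, so r mostly follows the group difference and the order inside each group. The changes of these genes were much smaller than that of Vgf. Cs, the citrate synthase gene, was at 479.0, 497.2 and 440.6 CPM in WT, and at 377.5, 392.4 and 394.3 CPM in KD. By Spearman's rho, 145 genes shared the same order as Vgf exactly, which leaves the ranking by this measure undecided. Among the other members, r with Vgf was 0.94 for Chga, Scg3 and Pcsk1n, 0.90 for Chgb, 0.57 for Scg2 and 0.51 for Cpe. It was 0.28 for Scg5, 0.27 for Pcsk1 and -0.20 for Pcsk2. Even the highest of these values were shared by many genes. Among the 11438 genes, Pcsk1n ranked 482, Chga 491, Scg3 539 and Chgb 1053, and Ybx1 ranked 819 (r = 0.91).

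**Figure D4:**
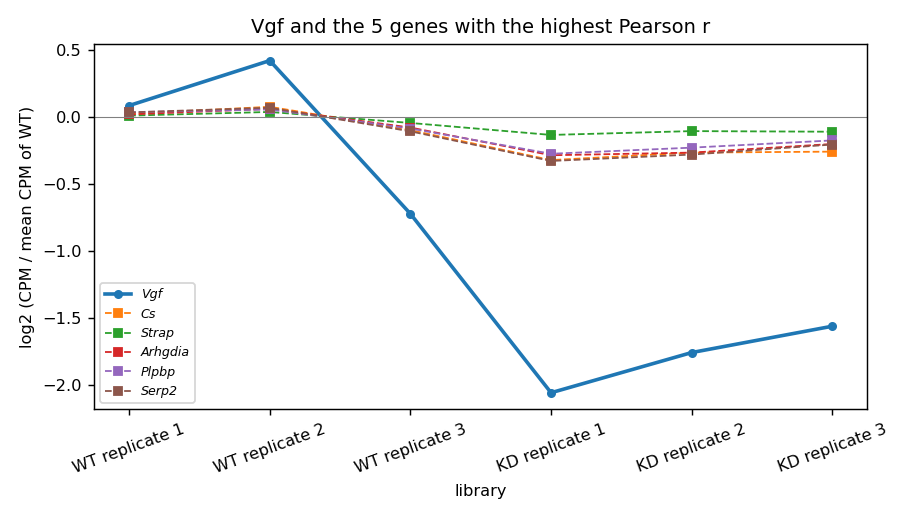
Log2 of CPM over the WT mean in each library for Vgf (thick line) and the 5 genes with the highest Pearson r with it. The dashed lines stay within a narrow band near 0, while Vgf falls to between -1.5 and -2.1 in KD.

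Other precursors of secreted peptides were counted next. Of 25 such genes, 14 were tested, and 2 were called higher and 1 lower, against 12.0% and 11.9% of all genes tested. The median log2 fold change was -0.35 against -0.0 for all genes. With the replicate number as a block, 3 were higher and 6 lower. The block gave 2539 higher and 2470 lower among all 13669 genes tested. Grp, the gene of gastrin-releasing peptide, was at 0.91 to 1.87 CPM in WT and 4.03 to 7.27 CPM in KD (log2 fold change 1.83, SE 0.31, adjusted P = 0.00432). Npy, the neuropeptide Y gene, rose by 0.39 (adjusted P = 0.0476), a call lost without WT replicate 2 (0.158), WT replicate 3 (0.106), KD replicate 1 (0.138) or KD replicate 3 (0.113) and with upper-quartile scaling (0.0641). Nppc, the C-type natriuretic peptide gene, fell by 1.01 on the log2 scale from under 3 CPM (adjusted P = 0.0169), and this was lost when WT replicate 2 (0.0664), KD replicate 1 (0.0528) or KD replicate 2 (0.0668) was omitted. Sst, the somatostatin gene and the highest of the list, differed by -0.55 on the log2 scale (SE 0.23, adjusted P = 0.108), and with the block its adjusted P was 2.35e-06. Its WT libraries alone ran from 451.6 to 852.4 CPM and the KD libraries from 328.3 to 537.4 CPM.

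Of 16 further processing enzyme genes, 14 were tested, with 3 called higher and 2 lower, against 12.0% and 11.9% of all genes tested. Their median log2 fold change was -0.05. Pam, the enzyme gene for the final amidation of many peptides, rose from between 70.6 and 87.3 CPM in WT to between 97.4 and 119.1 CPM in KD (log2 fold change 0.42, SE 0.10, adjusted P = 0.0154, and 0.057 without KD replicate 2). Cpd, a carboxypeptidase gene of the trans-Golgi network, differed by 0.26 (adjusted P = 0.0422), and its call held only without KD replicate 1 among the fits that left out a library, with adjusted P values otherwise from 0.0535 to 0.143. Mbtps1, the site-1 protease gene, also had 0.26 (adjusted P = 0.0147, and 0.0643 without WT replicate 2). Ctsb, which encodes the lysosomal protease cathepsin B, fell by 0.39 (SE 0.04, adjusted P = 0.000873). Cpm, a carboxypeptidase gene, fell by 0.58 (adjusted P = 0.0284), and was lost with DESeq2 (0.0597) and without WT replicate 2 (0.1), WT replicate 3 (0.0577), KD replicate 1 (0.0832) or KD replicate 2 (0.0957).

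Genes for the making and release of dense-core vesicles numbered 27, of which 25 were tested. Of these, 3 were called higher and 7 lower, against 12.0% and 11.9% of all genes tested, with a median log2 fold change of -0.14. With the block the counts were 6 and 10, beside 2539 and 2470 of all 13669 genes. Ptprn, the gene of the vesicle membrane protein IA-2, fell from between 81.3 and 95.6 CPM in WT to between 51.9 and 66.0 CPM in KD (log2 fold change -0.61, SE 0.09, adjusted P = 0.00287). Cyb561, which passes electrons into the vesicle, fell by 0.46 (SE 0.08, adjusted P = 0.00463). Rab3d, a secretory vesicle GTPase gene, fell by 0.45 (adjusted P = 0.0191, with 0.0779 without WT replicate 2 and 0.0508 without KD replicate 2). In the other direction, Sv2a, a vesicle glycoprotein gene also used by synaptic vesicles, rose from between 105.7 and 124.9 CPM to between 210.2 and 219.2 CPM (log2 fold change 0.93, SE 0.07, adjusted P = 0.000171). Syt9, a calcium sensor gene, rose by 0.42 (SE 0.08, adjusted P = 0.00674). Ccdc186, a gene of vesicle maturation, had 0.23 (adjusted P = 0.0466), and it was past the threshold without KD replicate 3 but in none of the fits without another library, where the adjusted P ran from 0.0589 to 0.155, and it was 0.0578 with DESeq2, 0.0502 with limma-voom, 0.0678 with upper-quartile scaling and 0.0546 on log2(TPM + 1).

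**Figure D5:**
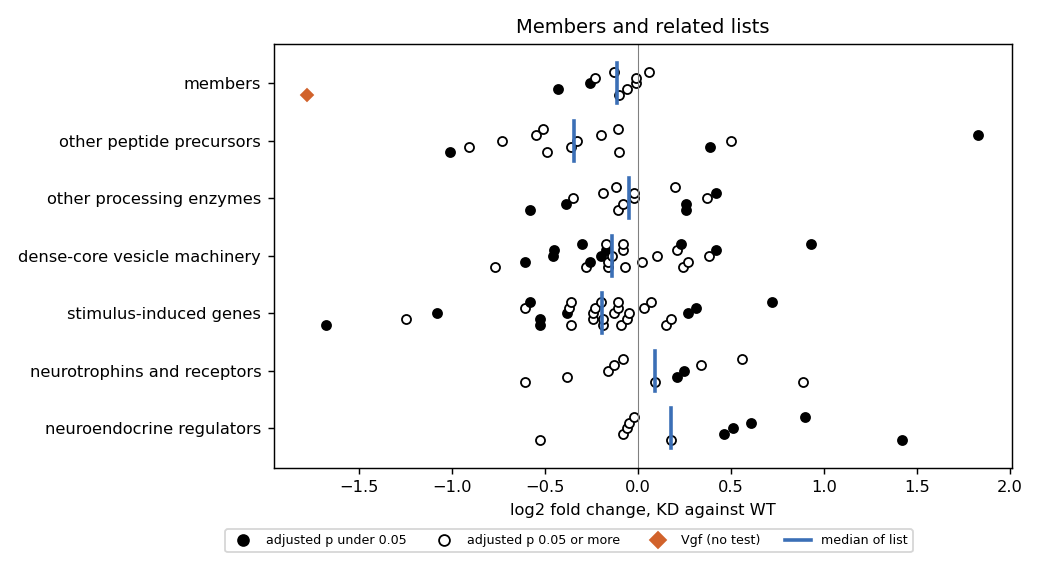
Log2 fold change of KD against WT of each gene tested in the members and the 6 related lists. Filled circles passed the threshold and open circles did not, the diamond is Vgf, given without a test, and the blue bar is the median of the list. All members but Vgf lie within 0.5 of 0, and every list but that of neuroendocrine regulators and that of neurotrophins has a median at or below 0.

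Because Vgf is known as an activity-regulated gene, 30 stimulus-induced genes were counted. All 30 were tested, and 3 were called higher and 6 lower, against 12.0% and 11.9% of all genes tested, with a median of -0.20. With the block the counts were 4 and 12, beside 2539 and 2470 of all 13669 genes. Fos, an AP-1 factor gene, was at 12.4, 18.1 and 7.60 CPM in WT, and at 3.07, 4.88 and 3.94 CPM in KD (log2 fold change -1.68, SE 0.31, adjusted P = 0.00591). WT replicate 3 was its lowest control, as for Vgf. Nr4a1, an orphan nuclear receptor gene, fell by 1.08 (adjusted P = 0.0188, with 0.0613 without WT replicate 2 and 0.0513 without KD replicate 2), and Per1, a clock gene, fell by 0.58 (SE 0.11, adjusted P = 0.00581). Among the rises, Ier5 had 0.72 (adjusted P = 0.0181, lost without WT replicate 2 at 0.0647, KD replicate 2 at 0.0719 or KD replicate 3 at 0.051). Srf, the serum response factor gene, had 0.27 (adjusted P = 0.0179) and Btg2 0.31 (adjusted P = 0.0473). Both calls were lost without WT replicate 1, WT replicate 2, KD replicate 2 or KD replicate 3, and that of Btg2 also without KD replicate 1, with adjusted P values of at most 0.0707 for Srf and 0.133 for Btg2. Btg2 was also lost with upper-quartile scaling (0.0619).

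Of 12 genes for neurotrophins, the known inducers of Vgf, and their receptors, 11 were tested. Of these, 2 were called higher and 0 lower, against 12.0% and 11.9% of all genes tested, with a median of 0.09. At an unadjusted P under 0.05 in edgeR 3 were lower, and with DESeq2, limma-voom and log2(TPM + 1) 0 were called lower. With the block, 4 were higher and 2 lower. Sort1, a sorting receptor gene, differed by 0.21 (adjusted P = 0.0196), which was lost without WT replicate 1 (0.0642), WT replicate 2 (0.0525), KD replicate 2 (0.0677) or KD replicate 3 (0.0542). Its relative Sorcs2 had 0.25 (adjusted P = 0.0159, and 0.0518 without KD replicate 2). All 11 transcriptional regulators of neuroendocrine genes were tested, and 5 were called higher and 0 lower, with a median of 0.18 and with 6 and 1 under the block. At an unadjusted P under 0.05 in edgeR 1 was lower, as 1 was called lower on log2(TPM + 1), against 0 with DESeq2 and limma-voom. Insm1, a zinc finger factor gene of neuroendocrine cells and of intermediate progenitors, rose from between 15.3 and 26.5 CPM in WT to between 55.0 and 57.7 CPM in KD (log2 fold change 1.42, SE 0.15, adjusted P = 0.000697). Neurod1 rose by 0.90 (SE 0.15, adjusted P = 0.00371) and Pax6, which also marks radial glia, by 0.61 (adjusted P = 0.0185, and 0.0738 without WT replicate 2). The repressor gene Rest, which silences many granin genes outside neurons, was at 15.2 to 17.8 CPM in WT and 14.4 to 17.4 CPM in KD (log2 fold change -0.06, adjusted P = 0.714). It was looked at because of this role, after its value was known.

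These are bulk samples, in which fewer cells of a type and less RNA per cell cannot be told apart, and cell type markers were counted beside the members. Over all 13669 genes tested, 12.0% were called higher and 11.9% lower, and with the block 2539 genes were higher and 2470 lower. Of 24 neuron markers, 3 were called higher and 6 lower (6 and 9 with the block), with a median of -0.07 and a summed level of 12143 to 12914 CPM in WT and 10915 to 12241 CPM in KD. Their highest gene was Map2, with a WT mean of 1703 CPM and a KD mean of 1717 CPM. Interneuron markers, led by Sst, had 2 of 12 called higher and 0 lower (3 and 4 with the block), with summed levels of 1430 to 2332 CPM in WT and 1338 to 1992 CPM in KD. Of the 9 intermediate progenitor markers tested (of 11), led by Elavl2, 7 were called higher and 0 lower (8 and 1 with the block, the lower one being Elavl2), from 321.8 to 344.9 CPM in WT and 381.3 to 449.9 CPM in KD in sum. Their median log2 fold change was 0.59, and for 8 of them each KD library lay above all WT libraries. Elavl2 went the other way, from a mean of 182.2 CPM in WT to 152.9 CPM in KD (log2 fold change -0.25, adjusted P = 0.103). It was the largest part of these sums, which therefore show less of the rise of the other markers. Radial glia markers, led by Fabp7, had 2 of 12 called higher and 0 lower (7 and 0 with the block), with sums of 1491 to 1656 CPM in WT and 1597 to 1833 CPM in KD. Where none was called lower, the numbers lower at an unadjusted P under 0.05 in edgeR were 2 interneuron, 1 intermediate progenitor and 0 radial glia markers, and of the other tools only DESeq2 called 1 lower, an interneuron marker. The marker lists share genes with the lists above, so their calls are not separate. Sst and Npy were also counted as peptide precursors, and Npy is among the interneuron markers called higher. Insm1 and Btg2 are also intermediate progenitor markers, and Pax6 is also a radial glia marker. The calls of Npy and Btg2 were lost in several fits, as given above. The part of these cell types in the levels of Vgf, Chgb and Pcsk1n was not tested.

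Markers of further cell types were counted in the same way, beside the same shares of all genes tested. Cajal-Retzius markers, led by Reln, had 0 of 6 called (at an unadjusted P under 0.05, 0 higher and 1 lower, and 0 with the other tools), with 1 higher and 2 lower with the block, and sums of 431.8 to 535.3 CPM in WT and 401.3 to 480.9 CPM in KD. Astrocyte and oligodendrocyte lineage markers, led by Aldoc, had 0 of 10 tested called higher and 2 lower (0 and 3 with the block). The counts were also 0 and 2 with the other tools and at an unadjusted P under 0.05. Their sums were 633.5 to 810.7 CPM in WT and 600.4 to 730.5 CPM in KD. Microglia markers, led by C1qa, summed to 2.72 to 4.80 CPM in WT and 2.97 to 3.85 CPM in KD, and 11 of 12 were below 1 CPM in every library. None of the 2 microglia, 3 endothelial and 1 erythroid markers tested was past 0.05 in edgeR even unadjusted, or called by another tool. Endothelial markers, led by Kdr, summed to 2.80 to 4.31 CPM in WT and 2.30 to 3.91 CPM in KD, with Cldn5, Cdh5 and Emcn at 0 in at least 3 libraries. Fibroblast and mural markers, led by Pdgfrb, rose in 1 of 4 tested, with sums of 10.3 to 13.3 CPM in WT and 13.2 to 15.7 CPM in KD, and erythroid markers, led by Hba-a2, stayed below 2.12 CPM in sum.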

How the data were processed

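mRNA was sequenced on the DNBSEQ platform in 6 libraries, and the sample titles gave the groups and the replicate numbers, with data columns named Ctrl assigned to the WT title of the same number. The labels' processing notes list HISAT2 2.2.1, Bowtie2 2.4.5 and RSEM 1.3.1 and the build GRCm38/mm10, with no role or order, and the annotation and strand setting are not given in the sources used here. The deposited estimated counts were rounded to whole numbers (all members held whole numbers in every library). TPM values were scaled by the authors to 1000000 per library and were used for levels between genes. In addition, 6 deposited FPKM columns and 6 columns of the authors' group averages were not used.

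edgeR 4.0.16 in R 4.3.3 was run with TMM scaling, filterByExpr (minimum count 10) and the quasi-likelihood test of KD against WT, two-sided, with Benjamini-Hochberg adjustment over 13669 genes and a threshold of 0.05. SE is the size of the log2 fold change over the root of its F statistic, and the common coefficient of variation was 7.69%. The test was tried on simulated data first. Members, lists and tests were chosen with earlier results of these data known. The genes named were the members and Ybx1, up to 3 rises and 3 falls past the threshold in each list, the 5 genes most like Vgf and the highest gene of each marker list; Rest was added after its value was seen.

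Pairing was checked by correlating deviations from the group means over genes. Correlations were 0.351, 0.32 and 0.178 for replicates 1, 2 and 3 and -0.276 to -0.018 for different numbers, so the numbers pair the libraries, although no label explains the numbers. The series text mentions 3 sequencing batches without assigning them. Alternatives were 3 scalings, 2 filters, DESeq2 1.42.0, limma 3.58.1 (voom, and trend on log2(TPM + 1)), the replicate block, an adjusted P under 0.01 and leaving out each library.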

Additional observations from a re-analysis of the deposited data

How the results depend on the processing

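Vgf and Pcsk1n lay below 0, and Pcsk1n past the threshold, in all 15 alternative fits. For Vgf this is a description only, since it was chosen for its fall. The replicate block changed no call among the members, but it gave 2539 higher and 2470 lower genes overall and 33 lower genes in the 6 related lists together, where the unpaired fit had 16. On log2(TPM + 1) with limma, 1072 genes were lower. At an adjusted P under 0.01 the counts were 629 higher and 634 lower genes, 1 other member lower (Pcsk1n), and 5 higher and 7 lower list genes. Leaving out 1 library at a time, which leaves 2 libraries in an arm and pools the spread, gave 779 to 1612 higher and 797 to 1583 lower genes, 1 to 4 other members lower, and 8 to 19 higher and 7 to 16 lower list genes. The lowest counts over all genes came without WT replicate 2 and without KD replicate 2 (884 higher, 849 lower), and the cause was not tested. Of the 25 list genes named, 10 kept their call in all 6 of these fits and 21 in the 9 other fits.

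Of the 7 members without a call, Scg5, Pcsk1 and Pcsk2 changed sign, and Chga, Scg2, Scg3 and Cpe did not. Scg5 had a log2 fold change of 0.02 with library totals only, 0.06 on log2(TPM + 1) and -0.10 to 0.06 without 1 library. Pcsk1 had 0.01, 0.05 and, with limma-voom, 0.02, and -0.21 to 0.17 without 1 library, and Pcsk2 had -0.09 to 0.15. The share of calls that were higher was 50.2% in the principal fit, 43.0% with upper-quartile scaling, 57.9% with library totals only and 65.9% on log2(TPM + 1), while the median of all genes moved by at most 0.05. Pcsk1 had the fewest counts, 101 to 182 a library, and an SE of 0.19, against 0.17 for Scg2 with 1451 to 2511 counts. The cause of either spread was not tested.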
